A study of Strophostyles helvola with 12 samples.

Results

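A set of 160 genes had lower counts in salt-treated than in water-supplied roots of the Beach genotype of Strophostyles helvola, while their mean level in the Inland genotype moved by less than 1.5-fold. The members were chosen by measured values: each count was divided by the total of its library and multiplied by 1000000 (CPM), CPM was averaged over the 3 replicates of a group, and 0.5 was added. A member was lower in Beach treatment than in Beach control by a factor of at least 2.5, and its ratio of Inland treatment to Inland control lay within 1.5-fold of 1. With the 0.5 included, its largest group mean was at least 5, the mean of the 4 groups was below 800, and Beach control and Inland control differed by at most 8-fold. Of the 27191 genes in the deposited table, 17110 met these limits on level, and the 160 members were 0.588% of all genes and 0.935% of those within the limits. The levels of the members in the 4 groups, and every ratio built from the group means, were therefore fixed in part by the choice and are given as a description.

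The samples were whole roots in 4 groups of 3 replicates, from plants that were 10 d old when salt or water was first supplied. Beach treatment received 400 mM NaCl and Beach control received water. Inland treatment received 200 mM NaCl and Inland control received water. Each replicate combined equal amounts of roots from 3 plants, taken 3 h, 24 h and 7 d after the final salt concentration had been reached, so each value averages over these times. Each genotype stands for one collection (a beach in North Carolina and Missouri), and all 4 groups grew in potting mix. The dose differed along with the genotype, and a difference between the genotypes' responses cannot be told apart from a difference between the doses. Beach control replicate 1 had the highest summed level of the members in its group. It had the highest value in 96 of them (60.0%), against 47.1% of the genes within the limits on level. The values it moves most are also given without it. Library totals ran from 29205979 to 41330498 counts, and no member had a count of 0 in any library. The smallest count was 2, and 155 members had at least 10 counts in every library. The reads had been aligned to the genome of common bean (Phaseolus vulgaris), a close relative, and the identifiers are those of its genes. The files do not pair the gene identifiers with names, no annotation was used here, and the root label could not be checked against marker genes. Identifiers are therefore printed for 4 members only.

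Salt in the soil first makes it harder for roots to take up water, and sodium that enters the cells later interferes with potassium uptake and metabolism. Plant roots commonly respond through abscisic acid signalling, the export of sodium by antiporters in the plasma membrane and its storage in the vacuole, and the synthesis of compatible solutes. Growth slows at the same time, and many transcripts linked to growth and nutrient uptake become less abundant. Plants of saline habitats (halophytes) and salt-sensitive plants (glycophytes) share much of this machinery and differ in when and how strongly it is used. The study set a Beach genotype described as salt-tolerant beside an Inland genotype described as salt-sensitive, to find how their roots respond to salt.

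The 160 members together held 2157 ± 190.5 CPM in Beach treatment, against 7010 ± 870 CPM in Beach control (SD, n = 3 each). Without Beach control replicate 1 the control mean was 6532 ± 379 CPM (SD, n = 2). In Inland they held 5187 ± 468 CPM in treatment and 5780 ± 215 CPM in control. In single libraries the sum was 2155.9, 1966.9 and 2347.9 CPM in Beach treatment replicates 1, 2 and 3, against 7965.9, 6264.4 and 6800.3 CPM in Beach control. It was 4782.5, 5699.5 and 5079.5 CPM in Inland treatment, against 6012.0, 5587.4 and 5741.7 CPM in Inland control. The 3 treated Beach libraries thus stood apart from the other 9, and the Inland groups overlapped. The RNA integrity numbers listed for the samples were lower in every Beach treatment sample than in every Beach control sample and overlapped between the Inland groups, and their part in the result was not tested. In bulk roots, fewer cells of a type and less RNA per cell cannot be told apart.

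**Figure D1:**
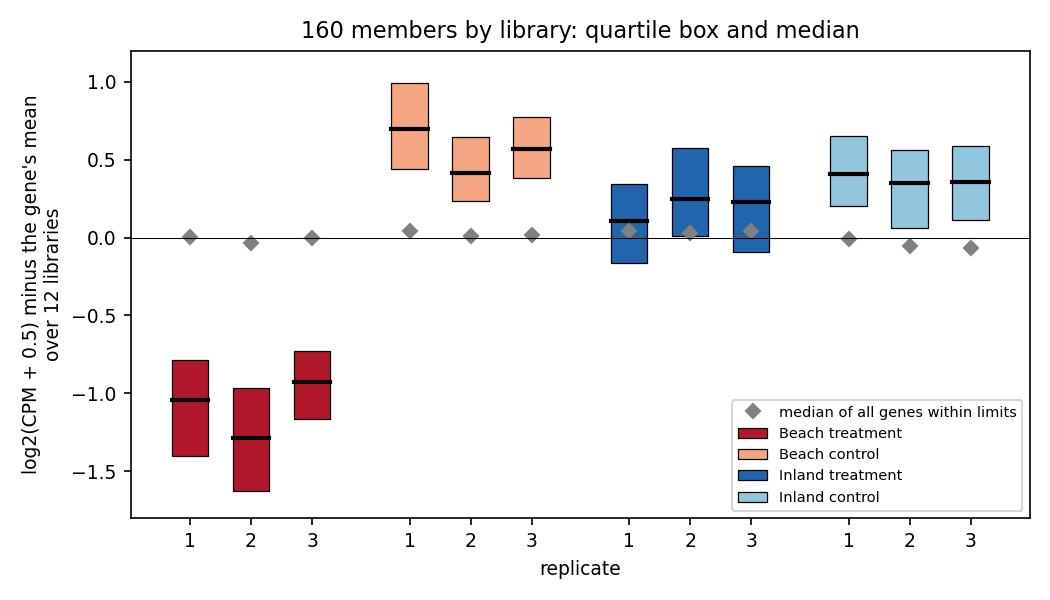
Level of the members in each of the 12 libraries, as log2(CPM + 0.5) minus the mean of the gene over all libraries; boxes span the quartiles of the 160 members, black lines are their medians and grey diamonds the median of the 17110 genes within the limits. The medians lie at -1.04, -1.29 and -0.93 in Beach treatment, between 0.42 and 0.69 in Beach control, between 0.11 and 0.25 in Inland treatment and between 0.35 and 0.41 in Inland control.

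Most members were of low to moderate abundance. The mean CPM of a member ran from 0.207 to 119 in Beach treatment with a median of 6.02, and from 1.35 to 394 in Beach control with a median of 21.2. In Inland treatment it ran from 0.213 to 299.6 with a median of 15.7, and in Inland control from 0.355 to 255 with a median of 17.7. The highest mean over the 4 groups among the members was 222 CPM, well under the upper limit of the rule. Another 52 genes met the other conditions but had a largest group mean under 5. The member nearest that limit had a largest group mean of 5.03 and the nearest gene outside it 4.97, with 0.5 included.

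The ratio of control to treatment in Beach, which the rule used, ran from 2.502 to 10.8 with a median of 2.99. It was at least 3 for 79 members, at least 4 for 29, at least 5 for 17, at least 8 for 4 and at least 10 for 2. Without Beach control replicate 1 it was at least 2.5 for 124 members, at least 5 for 16 and at least 10 for 1, with a median of 2.87. Ratios near the limit were thus much more common than large ones, and the member just inside the limit (2.502) and the gene just outside it (2.499) had almost the same ratio. On the log2 scale (CPM + 0.5, treatment over control) the median was -1.58 among the members and -0.05 among the genes within the limits. In all 160 members the 3 treated Beach libraries lay below the 3 control libraries, which was also the case for 32.0% of the genes within the limits. The lowest control library exceeded the highest treated one by a factor of 1.31 to 5.24 (median 2.14), and by at least 2-fold in 98 members. The share of all genes with such a gap was not worked out and the rule used this contrast, so nothing is read from the 98.

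Phvul.004G059200, an identifier that places the gene on chromosome 4 of common bean, had the largest ratio. Its level was 5.28, 2.46 and 10.9 CPM in Beach treatment, against 73.8, 53.3 and 88.7 CPM in Beach control. In Inland it was 37.6, 50.5 and 51.3 CPM in treatment, against 69.3, 59.9 and 58.0 CPM in control. Both genotypes had lower values in every treated library, but the Beach means were 6.22 ± 4.31 and 71.9 ± 17.8 CPM and the Inland means 46.5 ± 7.64 and 62.4 ± 6.04 CPM for treatment and control (SD, n = 3). Its log2 ratio was -3.43 in Beach and -0.42 in Inland. Without Beach treatment replicate 3, the highest of the treated libraries, the Beach value was -4.05, and over all libraries left out in turn it ran from -4.05 to -3.07.

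Phvul.011G211800, on chromosome 11, came next. It had 3.23, 2.84 and 3.57 CPM in Beach treatment, against 56.0, 37.1 and 20.3 CPM in Beach control. The treated libraries were close to each other, whereas the control libraries spread over nearly 3-fold. In Inland it had 34.6, 34.7 and 20.2 CPM in treatment, against 21.4, 25.9 and 17.8 CPM in control, and these groups overlapped. Its log2 ratio was -3.37 in Beach and 0.45 in Inland. Without Beach control replicate 1, its highest library, the Beach value was -2.97.

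These 2 genes had the largest Beach ratios among members with at least 10 counts in every library. The next member in that order, on chromosome 2 by its identifier, had 20.0, 10.1 and 29.2 CPM in Beach treatment, against 270.1, 104 and 152 CPM in Beach control. Its ratio of control to treatment was 8.68 with all libraries and 6.35 without Beach control replicate 1. In Inland it averaged 119.9 ± 25.6 CPM in treatment and 123 ± 1.67 CPM in control. The member after it, on chromosome 3, averaged 4.24 ± 0.652 CPM in Beach treatment and 38.3 ± 9.06 CPM in Beach control, against 14.3 ± 1.73 and 15.9 ± 2.15 CPM in the corresponding Inland groups. Beach control was 1.42-fold the Inland control for the gene on chromosome 2 and 2.37-fold for the gene on chromosome 3.

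**Figure D2:**
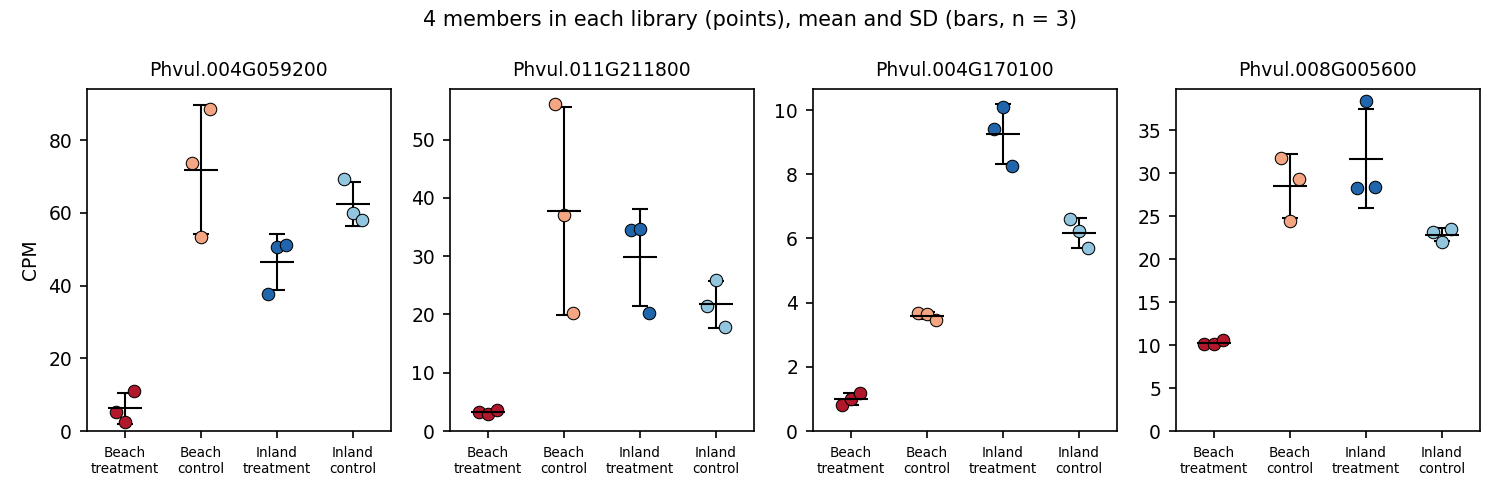
CPM of 4 members in every library (points), with the mean and SD of each group (bars, n = 3); the vertical axes start at 0 and differ between genes. Phvul.004G059200 and Phvul.011G211800 had the largest Beach ratios, and Phvul.004G170100 and Phvul.008G005600 were higher in every treated Inland library than in the Inland controls.

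With edgeR's quasi-likelihood test on the 6 Beach libraries, fitted over 16154 genes above 5 CPM in at least 3 of them, 140 members could be tested. All 140 passed at an fdr of 0.05 and at least a 2-fold change, with lower values in treatment, and 5.75% of all tested genes did so. The rule used this contrast, so nothing is read from that count. The 20 members left out by the filter averaged 1.35 to 6.58 CPM in Beach control.

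The Inland window held a part of a broader spread. The ratio of 2.5 in Beach was met by 571 genes within the limits, of which 405 were also lower in Inland treatment beyond the window, 160 lay inside it and 6 were higher beyond it. The members were thus 28.0% of the genes repressed in Beach to this degree. Over all 571 the median log2 ratio in Inland was -1.01, with quartiles of -1.59 and -0.51, and there was no gap at the limit. In strips of equal width on either side of the lower limit, 91 genes lay just outside (log2 -0.877 to -0.585) and 62 just inside (-0.585 to -0.292). The last member inside had an Inland ratio of treatment to control of 0.668 and the first gene outside 0.666. At the upper end these values were 1.498 and 1.556.

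**Figure D3:**
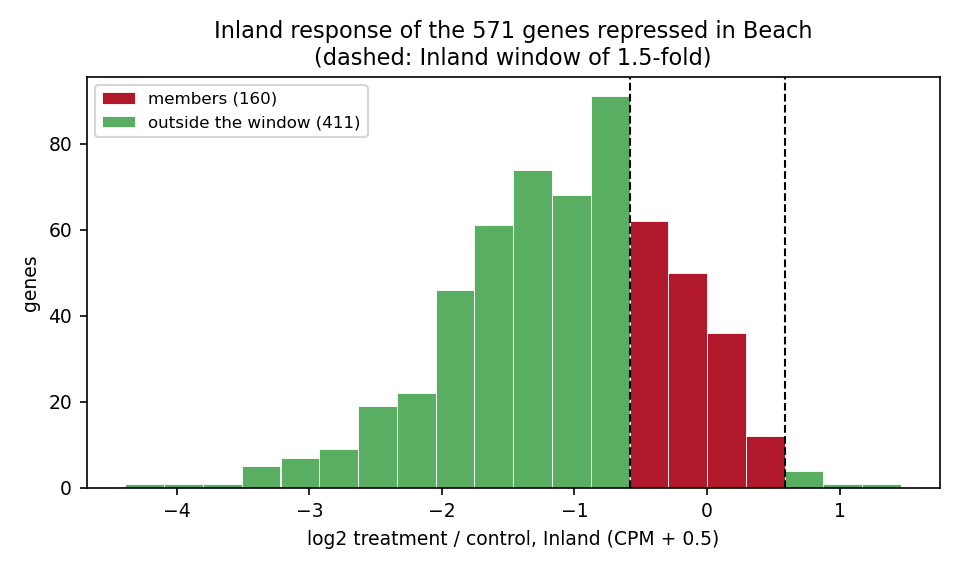
Histogram of the log2 ratio of treatment to control in Inland for the 571 genes whose Beach ratio met the limit of 2.5; the vertical axis counts genes, red marks the 160 members and green the 411 genes outside the Inland window, and dashed lines mark 1.5-fold. The members form the upper end of a distribution that runs across the lower limit, where 91 genes stand just outside and 62 just inside.

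Within the window the members leaned to lower Inland values. The Inland mean was lower in treatment for 112 members and higher for 48, while it was lower for 39.7% of the genes within the limits. The median Inland ratio of the members was 0.861 (log2 -0.22), against 1.05 (log2 0.08) among the genes within the limits. With CPM scaled by TMM, edgeR's normalization, these log2 medians were -0.28 and 0.01. In detail, 46 members had an Inland ratio up to 0.75, 42 lay between 0.75 and 0.9, 48 between 0.9 and 1.11, 16 between 1.11 and 1.33, and 8 above that.

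The 3 treated Inland libraries all lay below the 3 controls in 47 members, against 17.8% of the genes within the limits, and all above in 7 members, against 35.3%. The groups overlapped in the other 106 members. With TMM scaling 57 members lay below and 4 above, and the shares among the genes within the limits became 24.0% and 28.0%. By edgeR's quasi-likelihood test on the 6 Inland libraries, 0 of 141 testable members passed a fold change of 2 with an fdr of 0.05 in either direction, as the window implies, while 4.10% of the 16130 tested genes passed as lower and 3.38% as higher. The exact test and DESeq2 also passed 0 members. At an unadjusted p under 0.05 in the quasi-likelihood test there were 62 members. The matching share of all tested genes was not worked out, so nothing is read from that count. With the fdr alone, 46 members passed as lower and 2 as higher, and the background was 17.6% lower and 18.8% higher. The rule used this contrast as well, and these counts are a description of how far inside the window the members moved.

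Among the 7 members that were higher in every treated Inland library, the Inland ratio ran from 1.17 to 1.47 and the Beach ratio of control to treatment from 2.55 to 5.39. The ratio of 5.39 belonged to a member with 12.5, 2.86 and 2.71 CPM in Beach control replicates 1, 2 and 3, and it was 2.72 without replicate 1. In the other 6 the largest ratio was 3.03. For 4 of the 7 this held under both scalings, and the 2 with the largest Inland ratio among those are named here after their values were seen. Phvul.004G170100 had 0.814, 0.993 and 1.17 CPM in Beach treatment, against 3.67, 3.65 and 3.47 CPM in Beach control. In Inland it had 9.41, 10.1 and 8.25 CPM in treatment, against 6.60, 6.24 and 5.69 CPM in control. Its replicates were close together in all 4 groups, and it was lower in Beach than in Inland with and without salt. Phvul.008G005600 had 10.1, 10.2 and 10.5 CPM in Beach treatment, against 31.7, 24.5 and 29.3 CPM in Beach control. In Inland it had 28.3, 38.4 and 28.4 CPM in treatment, against 23.1, 22.0 and 23.5 CPM in control. One treated Inland library was well above the other two for this gene.

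**Figure D4:**
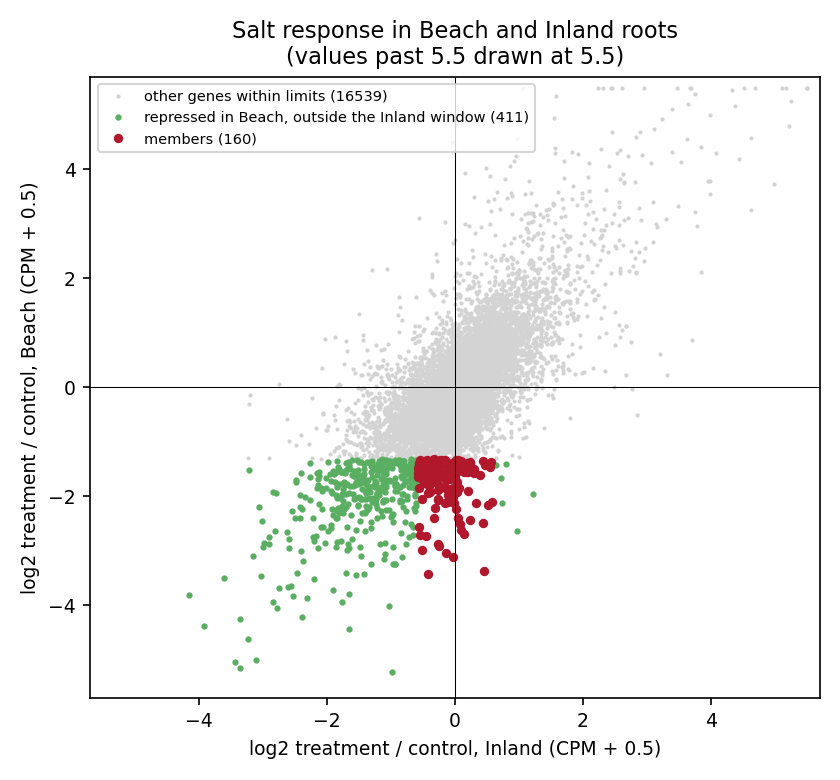
Log2 ratio of treatment to control in Beach (vertical) against that in Inland (horizontal) for the 17110 genes within the limits, from group means of CPM + 0.5; red points are the 160 members, green points the 411 other genes repressed in Beach, grey points all other genes, and values past 5.5 are drawn at that value. The members occupy the strip of the lower cloud between -0.58 and 0.58 in Inland, next to the 405 genes that were lower in both genotypes.

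The difference between the genotypes' log2 ratios (Beach minus Inland) ran from -3.81 to -0.79 among the members with a median of -1.43, against a median of -0.12 among the genes within the limits. For the 405 genes lower in both genotypes, whose Beach ratio had a median log2 of -1.83, this difference had a median of -0.55. In the fit of all 12 libraries, 150 members could be tested for the difference between responses, and 115 passed with a more negative response in Beach, against 2.42% of 16909 genes. Over all genes 410 passed as more negative and 425 as more positive, and scaling by library totals instead of TMM gave 587 and 344. The rule selects for this difference, so nothing is read from the count.

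The members divided by where the difference between genotypes lay. In treated plants the Beach to Inland ratio had a median of 0.416 (log2 -1.27), with quartiles of 0.319 and 0.521, and 19 members lay within 1.5-fold. In control plants it had a median of 1.15 (log2 0.20), with quartiles of 0.968 and 1.40, and 114 members lay within 1.5-fold. Among the genes within the limits the median ratios were 0.971 in treated plants and 1.05 in control plants. Of these genes 78.9% lay within 1.5-fold in treated plants and 86.05% in control plants, both larger shares than among the members. Beach treatment had the lowest of the 4 group means in 153 members, against 35.8% of the genes within the limits. Beach control had the highest in 105, against 29.1%. The most common order, in 66 members, was Beach control, Inland control, Inland treatment, Beach treatment, from high to low.

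Classes were formed with a limit of 1.5-fold after the values were seen. The largest, 112 members or 70.0%, had control levels within 1.5-fold between the genotypes and was lower in treated Beach by more than 1.5-fold. Its medians were 6.14 CPM in Beach treatment, 21.5 in Beach control, 16.4 in Inland treatment and 21.6 in Inland control. By the definition of the class, their levels were within 1.5-fold in water-supplied roots and further apart under salt. Phvul.004G059200 belongs to this class.

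A second class of 17 members was higher in Beach control than in Inland control by 1.53-fold to 6.37-fold and lay within 1.5-fold between the genotypes under salt. Its medians were 11.1 CPM in Beach treatment, 33.8 in Beach control, 9.47 in Inland treatment and 12.1 in Inland control. Treated Beach was within 1.5-fold of Inland control in 8 of the 17, and more than 1.5-fold below it in the other 9.

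Another 16 members were higher in Beach control and lower in Beach treatment than in the corresponding Inland group, each by more than 1.5-fold, and Phvul.011G211800 was one of them. Their medians were 9.41 CPM in Beach treatment, 34.6 in Beach control, 22.4 in Inland treatment and 17.2 in Inland control. A further 11 members, Phvul.004G170100 included, were lower in Beach than in Inland both with and without salt. Their medians were 1.37 CPM in Beach treatment, 5.57 in Beach control, 10.2 in Inland treatment and 14.8 in Inland control. The remaining members were 2 that were higher in Beach in both conditions and 2 that fell outside these classes.

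**Figure D5:**
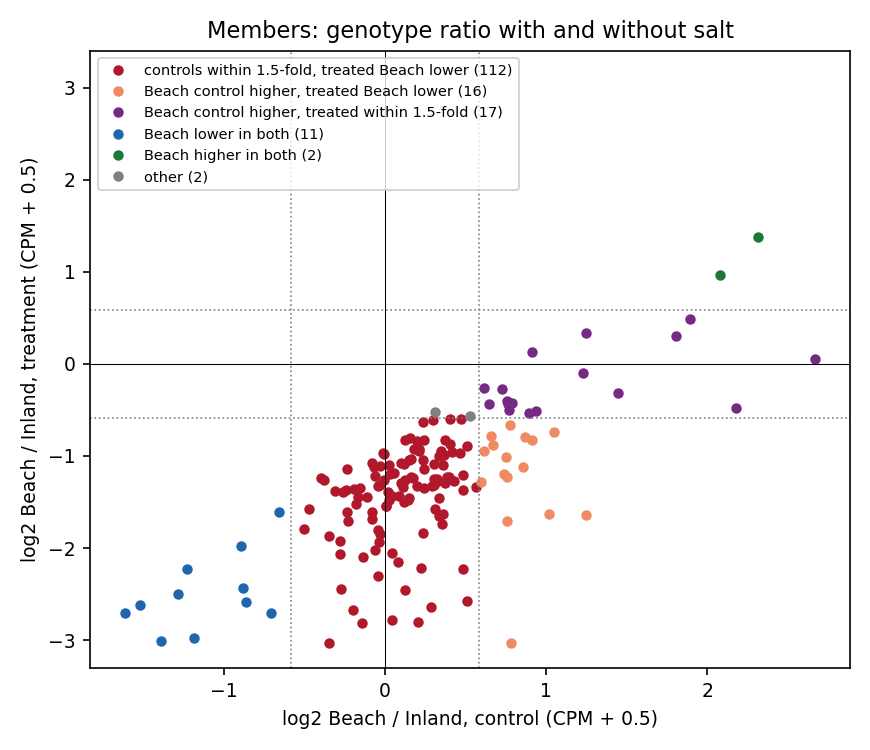
Log2 ratio of Beach to Inland in treated plants (vertical) against that in control plants (horizontal) for the 160 members, from group means of CPM + 0.5; colours mark the classes and dotted lines 1.5-fold. Most points (112) lie in the column of similar controls and below the lower dotted line, and 17 lie to the right with treated levels inside the dotted lines.

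In single libraries, the 3 Beach treatment libraries lay below all 3 Inland treatment libraries in 145 members, against 32.8% of the genes within the limits, and above them in 4, against 24.9%. In control plants the Beach libraries lay above all Inland libraries in 51 members, against 26.8%, and below in 18, against 14.8%. In 141 members every Beach treatment library was below each of the other 9 libraries, against 16.4%. By edgeR's quasi-likelihood test over all 12 libraries, 110 of 150 testable members passed as lower in treated Beach than in treated Inland and 1 as higher, with backgrounds of 5.61% and 4.64%. In control plants 6 passed as lower in Beach and 7 as higher, with backgrounds of 3.77% and 2.58%. Of the members, 103 passed in treated plants alone, 8 in both and 5 in control plants alone. The same split over all tested genes was not worked out, so nothing is read from it. All of these means entered the rule, and the counts describe the members without testing them.

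The choice was also repeated with replicates held out. The limits of the rule had been set with earlier results of these data known, so the held-out libraries were not fully independent of it. The rule was applied to 2 of the 3 replicates of each group, and the chosen genes were then read in the replicate left out. With replicate 1 held out 183 genes were chosen, with replicate 2 held out 155 and with replicate 3 held out 208, of which 118, 119 and 135 were among the 160 members. The median log2 ratio of treatment to control in Beach was -1.56, -1.58 and -1.58 in the libraries used for the choice. In the held-out libraries it was -1.46, -1.55 and -1.33, against -0.05, -0.06 and -0.02 among all genes within the limits. In the held-out libraries the ratio was below 1 in 181 of 183, 155 of 155 and 206 of 208 chosen genes. The shares were 53.7%, 55.3% and 51.9% of all genes within the limits.

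A Beach ratio of at least 2.5 implies the direction, so it could not be kept more often than the direction. In the held-out libraries the Beach limit of 2.5 was met by 108, 114 and 106 of the chosen genes (59.0%, 73.5% and 51.0%), against 3.74%, 4.22% and 3.48% of all genes within the limits. The Inland ratio lay within 1.5-fold in 113, 111 and 157 of them (61.7%, 71.6% and 75.5%), less than the 82.4%, 76.8% and 80.5% among all genes. Both conditions were met together by 74, 79 and 73 genes, or 40.4%, 51.0% and 35.1%, against 1.69%, 1.38% and 1.13%. With 1 library per group in each held-out set these values have no replicate error, and no test was made.

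In Inland the held-out median log2 ratio was -0.45, -0.10 and -0.17 for replicates 1, 2 and 3, against 0.05, 0.09 and 0.11 among all genes. The held-out Inland value was below 1 in 159 of 183, 87 of 155 and 141 of 208 chosen genes (86.9%, 56.1% and 67.8%), against 43.6%, 40.7% and 36.0% of all genes within the limits. The held-out difference between Beach and Inland had medians of -1.07, -1.44 and -1.07, against -0.10, -0.14 and -0.11 among all genes. The Beach response was the more negative of the pair in 160 of 183, 150 of 155 and 197 of 208 chosen genes, against 58.2%, 65.5% and 61.3% of all genes.

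The median coefficient of variation over the 3 replicates was higher among the members than among other genes of like mean level over the 4 groups, a difference that was not tested. It was 0.231 in Beach treatment, 0.175 in Beach control, 0.158 in Inland treatment and 0.110 in Inland control. Among 13729 other genes with a mean level between 4.11 and 91.8 CPM, the range of the middle 80 percent of members, it was 0.071, 0.118, 0.069 and 0.077 in the same groups. The 405 genes lower in both genotypes had values of 0.182, 0.234, 0.181 and 0.168. In Beach treatment and in Inland treatment the median of the members was more than 2-fold that of the 13729 other genes. Levels were matched over the 4 groups and not within each group. The rule sets the members low in Beach treatment (median 6.02 CPM, against 21.2 CPM in Beach control), so the comparison in that group is not one at like level.

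Some libraries were the highest or the lowest of their group in most members. Beach control replicate 1 was the highest of its group in 96 members (60.0%), against 47.1% of the genes within the limits. Beach control replicate 2 was the lowest of its group in 86 members (53.75%), against 29.9%. Beach treatment replicate 2 was the lowest of its group in 107 members (66.9%), against 44.1%, and replicate 3 the highest in 84 (52.5%), against 35.5%. Inland treatment replicate 1 was the lowest of its group in 98 members (61.3%) and replicate 2 the highest in 82 (51.2%), against 31.8% and 35.6%. Inland control replicate 1 was the highest of its group in 85 members (53.1%), close to its share of 49.5% among the genes within the limits. Without Beach control replicate 1 the median log2 ratio of the 160 members in Beach was -1.52. The rule then chose 133 genes, 119 of them among the 160, and without Beach treatment replicate 2 it chose 145, 132 of them among the 160. Leaving out Beach control replicate 2 gave 207 genes, and 154 of the 160 were kept.

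The profile over the 12 libraries was shared by most members. Pearson's r of log2 CPM with the median profile of the members had a median of 0.923 over 12 libraries, with quartiles of 0.843 and 0.959, and a lowest value of 0.058. The median among genes within the limits was 0.059. The libraries fall into 4 groups and the members were selected on their means, so this likeness follows in large part from the choice. Among genes that are not members, 109 reached an r of 0.95, and 99 of these missed the Beach limit. Their median ratio of Beach control to treatment was 2.01 and their median Inland ratio of treatment to control 0.937. The 3 most alike had r of 0.986, 0.983 and 0.983 with Beach ratios of 2.002, 1.81 and 2.13. With a Beach limit of 2 in place of 2.5 the rule chose 441 genes.

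Members lay on all 11 chromosomes of common bean, as read from the identifiers. Chromosome 3 held 24, chromosome 2 held 21, chromosome 9 held 19 and chromosome 6 held 18, and the fewest were the 7 on chromosome 4. Per gene within the limits, the share ran from 0.716% on chromosome 5 to 1.30% on chromosome 6. None of the 33 unplaced genes within the limits was a member.

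Among the 160 members 1 pair had consecutive identifiers, and 6 pairs (12 members) lay within 5 identifiers of each other. Among the 405 genes lower in both genotypes 23 pairs were consecutive and 47 lay within 5 identifiers. For the 141 genes higher in treated Beach and within the Inland window these counts were 5 and 12. The sets differ in size and the counts expected for each size were not worked out, so nothing is read from them. The 6 pairs lay on chromosomes 1, 2, 6, 7, 8 and 11, and r between the 2 genes of a pair over 12 libraries was 0.484, 0.868, 0.571, 0.937, 0.904 and 0.994. The 314 nearest neighbours of the members among genes within the limits had a median log2 ratio of -0.10 in Beach and 0.05 in Inland. The Beach limit was met by 12 of them (3.82%), against 3.34% of the genes within the limits. The latter share includes the members, which all meet the limit, so the 2 shares are not like for like. The medians of the neighbours, which the rule did not choose, lay near those of the genes within the limits (-0.05 in Beach and 0.08 in Inland).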

How the data were processed

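Root RNA of the 12 samples was sequenced as single reads. The authors trimmed the reads with Trimmomatic 0.36, aligned them to the common bean genome Pvulgaris_218_v1.0 with STAR and counted reads with a single alignment over exons with featureCounts. The versions of STAR and featureCounts are not given in the sources used here, and the code names no strand option. The deposited values are raw counts, 1 column for each of the 12 libraries, all of which were used. Genes that overlap, or lie antisense to each other, may share reads, and near-identical copies lose reads that align to several places.

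The members were found by applying the rule to CPM from library totals. Counts were tested with edgeR 4.0.16 in R 4.3.3, keeping genes over 5 CPM in 3 or more fitted libraries, after TMM normalization, by the quasi-likelihood test with Benjamini-Hochberg adjustment over all genes tested. Each genotype was fitted alone for its response, and all 12 libraries together for the interaction and the genotype contrasts. Alternatives were edgeR's exact test, as in the authors' code, and DESeq2 1.42.0. Tables and plots were made with Python 3.11.15, pandas 2.3.3, numpy 2.4.6 and matplotlib 3.10.9. The members, the limits and the comparisons were chosen with earlier results of these data known. The genes to be named were the 2 with the largest Beach ratio among members with at least 10 counts in every library and no overlap in Beach, and 2 more were named after their values were seen.

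The edgeR steps were tested on simulated counts in which 200 genes differed by a log2 ratio of 1.5. Of these, 100.0% were found in the Beach design (15952 genes tested), 100.0% in the Inland design (15873 genes) and 97.5% for the interaction (16238 genes). Recovery at the levels and the replicate spread of the members was not tested separately, so these shares are not read as applying to the members. Gene lists by function were not applied, because identifiers carry no names in the file. The replicates came from separate pools of plants.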

Additional observations from a re-analysis of the deposited data

Results flagged for a closer look

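In 7 members every treated Beach library was below every Beach control library while every treated Inland library was above every Inland control library. This difference in direction was not tested, since the rule chose the members on both means, and with TMM scaling it held for 4 members. Phvul.004G170100 and Phvul.008G005600 were among these 4. With library totals, all treated Inland libraries lay above the Inland controls in 35.3% of the genes within the limits, against 4.38% of the members. The share of those genes with both patterns was not worked out, so nothing is read from the count of 7.

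In the edgeR fit of all 12 libraries, 115 of 150 testable members passed at an fdr of 0.05 and at least a 2-fold difference, with a more negative response in Beach than in Inland, against 2.42% of all genes tested. The rule selects for this difference, and Beach plants received 400 mM NaCl, against 200 mM for Inland plants.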

How the results depend on the processing

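With a Beach ratio of 2 or 3 in place of 2.5 the rule chose 441 or 79 genes, and with a narrower Inland window it chose 92. TMM scaling gave 129 (128 of the 160), the median of replicates 189 (126 shared), a pseudocount of 0.1 180 (148 shared) and of 2 113 (100 shared). Leaving out each library gave 133 to 207 genes. When the fold change was tested against 2, 82 members passed in Beach, 5 in the interaction, 2 in control plants and 48 in treated plants. With the fdr alone, 48 members passed in Inland and 32 in control plants. These member counts take both directions together. Without each Inland library in turn, 0 to 1 member passed in Inland. The 1 member passed without Inland treatment replicate 2. The other counts of members that passed, under the other tests, normalizations and filters, stayed within 1.5 times those given. The median log2 ratios of the members kept their sign under each scaling, pseudocount and library left out. In Beach the median ran from -1.64 to -1.52 with a library left out.

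Over all genes, the counts of genes that passed as lower were 929 in Beach, 661 in Inland, 410 in the interaction, 637 in control and 949 in treated plants. With the fdr alone they were 3730, 2835, 1110, 2339 and 3376. Tested against a fold change of 2 they were 332, 186, 8, 248 and 393. In the same order, 1090, 546, 425, 437 and 785 genes passed as higher. With the fdr alone 3317, 3033, 1085, 2035 and 2971 did so, and against a fold change of 2 549, 208, 11, 211 and 367. The genes tested numbered 16154 in Beach, 16130 in Inland and 16909 in the other contrasts. Without a filter the counts that passed as lower were 1596 in Beach, 1059 in Inland, 1092 in control and 1593 in treated plants. With library totals in place of TMM the interaction passed 587 genes as more negative and 344 as more positive in Beach, against 410 and 425.

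The labels number the replicates of each group. Between groups, 18 pairs of the same number had correlations of deviations from -0.162 to 0.118, and 3 of them were above 0.1. Pairs of unlike number were not compared, so shared handling of replicates with the same number was not tested. With the replicate block 140 members passed in Beach, 0 in Inland, 113 in the interaction, 14 in control plants and 112 in treated plants, in either direction. Over all genes, 928, 622, 388, 614 and 938 then passed as lower in the same order. Those that passed as higher numbered 1099, 537, 384, 436 and 777. Members with a very low level in a group rest on few counts there, and 5 members had under 10 counts in some library. The exact test has no form for the interaction and was not run for it.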
